A study of Homo sapiens with 14 samples.

Results

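Deep intron sites are the C-to-U edit sites that lie far from any exon. A position of the 14 libraries was counted as a deep intron site when it fell in the span of a protein-coding gene on its own strand, in no annotated exon of that strand, and more than 500 nt from every exon edge of that gene (hg38, Gencode 44). Of 363599 positions, 48547 met this rule (13.4%), in 16608 introns of 7044 genes. They gave 50000 site calls over the libraries, since a position found in several libraries is called once in each. Of the positions, 1929 met the rule for more than 1 overlapping gene and were given to 1 of them. The rule used position alone, and no edit value. At its edge, 345 positions passed the limit by 20 nt or less, and 384 intronic positions missed it by less than 20 nt.

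INSCRIBE marks the RNA near a chosen protein in fixed cells. An antibody finds the protein, and a nanobody fused to the deaminase APOBEC1 binds that antibody and turns nearby cytosines into uracils, which are read as C-to-T changes. The cells were methanol-fixed HEK293T (HEK293XT in the cell line label), an immortalized human embryonic kidney line, and libraries were made from 1 ng or 100 pg of total RNA. At each input, 3 RBFOX2 libraries received the rabbit antibody to RBFOX2 and the enzyme, 1 Enzyme-only library received the enzyme without the antibody, and 3 Buffer-only libraries received neither. All groups share the line, the fixation and the library kit, and the study describes its replicates as technical, so p-values measure the spread between these libraries alone.

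RBFOX2 is a splicing regulator whose RNA recognition motif binds UGCAUG. Much of its binding in cells lies in introns, where its place relative to an exon is tied to whether that exon is included. Introns are removed soon after transcription, so deep intronic RNA is seen mainly in nascent or unspliced transcripts, and it is a small part of total RNA for most genes. APOBEC1 prefers a cytosine that follows an A or a U, which makes the base before the edited C a mark of the enzyme that is separate from the antibody.

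The sequences of 6 motif copies show what the edits look like. Each copy had deep intron sites within 50 nt in at least 4 of the 6 RBFOX2 libraries and in none of the 6 Buffer-only libraries. They were chosen after the values were seen, and they are shown as the copies edited in most libraries; most copies with a site had one in 1 library only. Bases are in DNA letters of the gene strand, read 5′ to 3′ from hg38. Capitals mark UGCAUG and each C edited in an RBFOX2 library.
MPRIP, chr17:17163135-17163234, plus strand: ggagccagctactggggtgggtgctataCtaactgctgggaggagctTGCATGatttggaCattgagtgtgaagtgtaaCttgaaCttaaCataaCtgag
MPRIP, chr17:17163365-17163464, plus strand: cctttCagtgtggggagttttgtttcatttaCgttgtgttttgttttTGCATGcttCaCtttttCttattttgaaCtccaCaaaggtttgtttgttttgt
MORF4L2, chrX:103682049-103682148, minus strand: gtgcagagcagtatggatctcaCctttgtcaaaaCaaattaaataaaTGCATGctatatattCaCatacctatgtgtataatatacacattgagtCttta
RC3H1, chr1:174017370-174017469, minus strand: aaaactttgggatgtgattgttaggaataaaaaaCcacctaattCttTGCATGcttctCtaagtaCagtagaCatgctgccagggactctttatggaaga
SSH2, chr17:29867194-29867293, minus strand: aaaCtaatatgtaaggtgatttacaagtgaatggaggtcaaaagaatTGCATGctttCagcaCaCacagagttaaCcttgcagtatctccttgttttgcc
FMC1-LUC7L2, chr7:139372467-139372566, plus strand: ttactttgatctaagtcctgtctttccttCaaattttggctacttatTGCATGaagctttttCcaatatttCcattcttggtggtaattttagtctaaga
In these windows the edited cytosines stand on both sides of the motif and at several places each, with 3 to 7 edited C per window. Both windows of MPRIP lie in intron 19 of 32, an intron of 2752 nt. RC3H1, which encodes the mRNA decay factor Roquin, was edited in its intron 1 of 19, an intron of 28960 nt. The copy assigned to FMC1-LUC7L2 met the rule for 2 overlapping genes.

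A further 3 windows were edited around UGCAUG in all 3 RBFOX2 libraries at 1 ng and in no Buffer-only library of either input, and are shown for the repeats between libraries.
MECOM, chr3:169561283-169561379, minus strand: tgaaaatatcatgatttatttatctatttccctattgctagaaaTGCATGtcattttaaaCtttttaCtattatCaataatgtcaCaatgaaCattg
DOCK1, chr10:127176605-127176704, plus strand: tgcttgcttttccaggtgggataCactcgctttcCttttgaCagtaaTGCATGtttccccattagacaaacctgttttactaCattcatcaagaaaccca
RAVER2, chr1:64810086-64810175, plus strand: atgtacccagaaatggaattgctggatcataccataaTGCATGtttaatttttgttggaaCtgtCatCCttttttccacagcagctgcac
MECOM, which encodes a zinc finger transcription factor, held the only position within 50 nt of UGCAUG that was itself called in all 3 RBFOX2 libraries at 1 ng and in no Buffer-only library at that input. At this position, 169561287 on chromosome 3, 3 of 20, 5 of 15 and 2 of 24 reads were edited, which gave edit fractions of 15%, 33.3% and 8.33%. At the copies in DOCK1, an activator of the GTPase Rac, and RAVER2, an RNA-binding protein, the libraries mostly edited different cytosines. No position near the motif met this at 100 pg.

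Deep intron sites were sparse in reads. Median coverage of deep intron sites ran from 8 to 9 reads in the 1 ng libraries and from 11 to 13 in the 100 pg libraries, against 25 to 27 and 26 to 35 at the other sites on a gene strand. Between 56.1% and 79.3% of the deep intron sites of a library rested on 1 edited read. Of the 48547 positions, 47732 (98.3%) were called in 1 library only. The files give edited and total reads at sites and no expression levels, so the cell line was not checked against its markers. None of 19 marker genes of other cell types held a deep intron site, and 4 of them held some other site on the strand of the gene.

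With 1 ng of input, the 3 RBFOX2 libraries held 4948, 5395 and 5531 deep intron sites. The Buffer-only libraries held 2005, 2444 and 2531, and the Enzyme-only library held 5780. The groups did not overlap, and the RBFOX2 mean was 2.274 times the Buffer-only mean (5291 ± 305 against 2327 ± 282, SD, n = 3; exact two-sided permutation test, p = 0.1, the smallest p that 3 against 3 allows). The Enzyme-only library, without any antibody, lay above all 3 RBFOX2 libraries. With 100 pg, RBFOX2 libraries held 3214, 3402 and 3398 sites, the Buffer-only libraries 2859, 2636 and 2418, and the Enzyme-only library 3439. The groups again did not overlap, but the RBFOX2 mean was only 1.27 times the Buffer-only mean (exact permutation p = 0.1). Across the 14 tests of this kind (7 values at each input), p-values of 0.1 became 0.14 after Benjamini-Hochberg adjustment, so none passed 0.05.

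**Figure D1:**
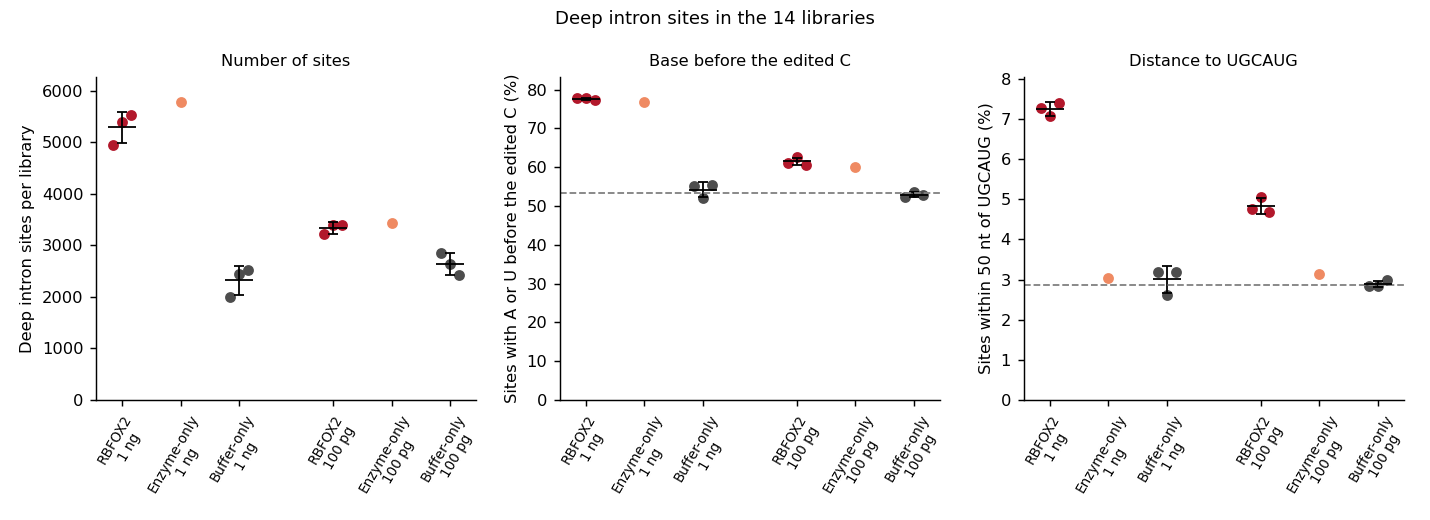
Deep intron sites in each library (points; black bars, mean and SD of 3 libraries): the number of sites, the share with A or U before the edited C, and the share within 50 nt of UGCAUG. Dashed lines give the share among all C deep in introns of the same genes (53.4% and 2.87%). The Enzyme-only points lie beside or above RBFOX2 in the first and middle panels (5780 sites and 76.7% at 1 ng) and beside Buffer-only in the last (3.04%).

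Deep introns took a smaller share of the sites on gene strands in the RBFOX2 libraries than in Buffer-only. At 1 ng the RBFOX2 shares were 16.4%, 17.1% and 17.3%, and those of Buffer-only 18.13%, 19.9% and 20.7%. The 100 pg shares were 19.1%, 19.9% and 19.9% for RBFOX2 against 26.1%, 24.7% and 24.9% for Buffer-only. The groups did not overlap at either input (exact permutation p = 0.1 at both). The direction at 1 ng depends on the denominator: of all sites of a library, on gene strands or not, deep intron sites made up 12.32% to 12.99% in RBFOX2 and 9.86% to 11.3% in Buffer-only, higher in RBFOX2, while at 100 pg they made up 12.1% to 12.4% and 12.7% to 13.5% (exact permutation p = 0.1 at both). The Enzyme-only shares were 21.2% (95% Wilson interval 20.8 to 21.7) at 1 ng and 23.0% (22.3 to 23.7) at 100 pg. Wilson intervals here cover counting error only.

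Sites deep in introns of protein-coding genes on the opposite strand, by the same rule, served as a comparison, because the kit is not stated to keep the strand. They were not limited to the introns that held deep intron sites, and they could lie in a gene of their own strand. For each site on the opposite strand there were 1.77, 1.71 and 1.76 deep intron sites in the RBFOX2 libraries at 1 ng. The Buffer-only libraries held 0.985, 0.977 and 0.998, about as many on either strand. The ratio at 100 pg was 1.06 ± 0.0327 in RBFOX2 and 0.913 ± 0.0286 in Buffer-only (SD, n = 3; exact permutation p = 0.1). The Enzyme-only ratios were 1.87 at 1 ng and 1.104 at 100 pg. The excess on the gene strand was thus seen in both groups that received the enzyme.

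The base before the edited C differed between the libraries with and without the enzyme. At 1 ng an A or a U stood before 77.9%, 77.8% and 77.4% of deep intron sites in the RBFOX2 libraries, and before 55.1%, 51.9% and 55.4% in Buffer-only. The difference was 23.5 percentage points (exact permutation p = 0.1). The Enzyme-only library gave 76.7% (75.6 to 77.8), beside the RBFOX2 values. Among all 134133241 C deep in introns of the same genes, 53.4% follow an A or a U, close to the Buffer-only share. The 100 pg shares were 61.5 ± 0.986% in RBFOX2, 60.02% (58.4 to 61.6) in Enzyme-only and 53.0 ± 0.706% in Buffer-only (SD, n = 3; exact permutation p = 0.1 for RBFOX2 against Buffer-only). Of the bases that count, A gave the larger part of the difference at 1 ng: it stood before 40.2 ± 0.371% of sites in RBFOX2 and 22.3 ± 1.55% in Buffer-only, whereas U stood before 37.5 ± 0.301% and 31.9 ± 0.540%.

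Over all deep intron sites, closeness to UGCAUG differed between RBFOX2 and both other groups. A site was counted as near the motif when the centre of a UGCAUG on its own strand lay within 50 nt. At 1 ng, 7.28%, 7.08% and 7.41% of deep intron sites in the RBFOX2 libraries were near the motif, against 3.19%, 2.62% and 3.20% in Buffer-only. The RBFOX2 mean was 2.42 times the Buffer-only mean (7.26 ± 0.167% against 3.00 ± 0.333%, SD, n = 3; exact permutation p = 0.1), and the groups did not overlap. The Enzyme-only library gave 3.04% (176 of 5780 sites; 2.63 to 3.52), below every RBFOX2 library and within the range of Buffer-only. The RBFOX2 shares at 100 pg were 4.76%, 5.06% and 4.68%, compared with 2.83%, 2.85% and 2.98% in Buffer-only (exact permutation p = 0.1). There the Enzyme-only share was 3.14% (2.61 to 3.78). Among all C deep in introns of these genes, 2.87% lie within 50 nt of the motif.

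The reverse complement CAUGCA, which shares its CAUG letters with UGCAUG where the motifs overlap, was counted in the same way. It lay within 50 nt of 2.92 ± 0.233% of RBFOX2 sites and 2.95 ± 0.347% of Buffer-only sites at 1 ng, and of 2.80% of all C. GCACG falls within the wider RBFOX2 motif GCAYG (Y is C or U) that the study also uses. It lay near 1.65 ± 0.224% and 2.08 ± 0.234% of sites, and near 2.23% of all C. Its groups did not overlap at 1 ng, with RBFOX2 lower (1.45% to 1.89% against 1.90% to 2.34%). UGUGUG lay near 4.47 ± 0.354% and 3.45 ± 0.311%, and near 4.28% of all C, and its groups did not overlap at 1 ng. The direction turned at 100 pg, with 3.79 ± 0.502% in RBFOX2 and 4.17 ± 0.329% in Buffer-only, and the groups overlapped. CAUGCA lay near 3.11 ± 0.320% and 2.64 ± 0.211% there, and GCACG near 2.17 ± 0.242% and 2.12 ± 0.520%. These 3 motifs were searched on the strand of the site and were given no test.

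**Figure D2:**
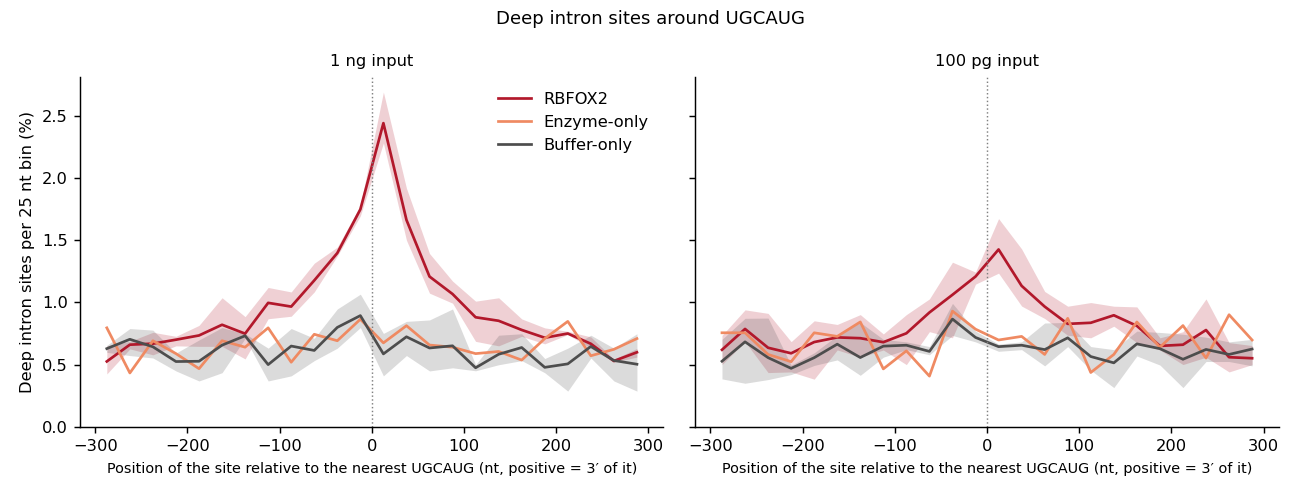
Share of deep intron sites in bins of 25 nt around the nearest UGCAUG, with sites 3′ of the motif to the right. Lines are means and bands the lowest and highest of 3 libraries; the Enzyme-only line is 1 library. The RBFOX2 lines peak just 3′ of the motif, at 2.44% at 1 ng and 1.43% at 100 pg, and the other lines stay near or below 1%.

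The sites crowded closest to the motif. In the 25 nt on its 3′ side, the mean share of deep intron sites at 1 ng was 2.44 ± 0.219% in RBFOX2 and 0.586 ± 0.171% in Buffer-only (SD, n = 3), with 0.675% in Enzyme-only. In the 25 nt on its 5′ side the shares were 1.75 ± 0.0452% and 0.894 ± 0.150%. Counted over 50 nt, 208, 208 and 236 sites of the RBFOX2 libraries lay 3′ of the motif and 149, 167 and 170 lay 5′ of it. In Buffer-only 29, 24 and 38 lay 3′ and 32, 34 and 40 lay 5′. The 3′ side was thus ahead in all 3 RBFOX2 libraries and behind in all 3 Buffer-only libraries at 1 ng, the latter on small counts. The Enzyme-only library was near even at 1 ng, with 86 sites 3′ and 85 sites 5′. The 3′ side at 100 pg was ahead in RBFOX2 replicates 1 and 2 (90 against 56 and 91 against 75) and behind in replicate 3 (75 against 80). Buffer-only was near even there (38 against 39, 34 against 33 and 31 against 32), and Enzyme-only held 49 against 53. Beyond the window the groups still did not overlap at 1 ng. At 50 to 100 nt the shares were 4.42 ± 0.145% in RBFOX2 and 2.55 ± 0.206% in Buffer-only. At 100 to 200 nt they were 6.53 ± 0.549% and 4.59 ± 0.390%. The groups came closest at 200 to 500 nt, with 14.02 ± 0.575% of RBFOX2 sites and 12.8 ± 0.538% of Buffer-only sites. There the lowest RBFOX2 library had 13.40% and the highest Buffer-only library 13.37%. The motif holds a C of its own, which follows a G, and 3 to 7 sites per RBFOX2 library at 1 ng, and 4 to 7 at 100 pg, fell inside it. The Enzyme-only libraries held 5 and 6 such sites, and Buffer-only libraries 3 to 6 and 4 to 9. At 1 ng these were on average 0.0876% of RBFOX2 sites and 0.171% of Buffer-only sites, beside 0.154% of all C.

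Both preferences met in the same sites. Among deep intron sites with A or U before the edited C, 8.30%, 7.86% and 8.39% were near UGCAUG in the RBFOX2 libraries at 1 ng, against 2.99%, 1.65% and 3.21% in Buffer-only. Among the other sites the shares were 3.66%, 4.34% and 4.08% against 3.44%, 3.66% and 3.19%, and the groups overlapped. The 100 pg values were 5.92 ± 0.311% against 2.51 ± 0.676% for the first kind and 3.08 ± 0.128% against 3.31 ± 0.600% for the second. Read the other way, 87.6 ± 1.25% of RBFOX2 sites near the motif at 1 ng had the A or U, compared with 76.9 ± 0.285% of those farther away. Edit fractions near the motif were high at 100 pg, with medians of 20%, 20% and 18.2% in RBFOX2, 11.1% in Enzyme-only and 9.09%, 9.09% and 10.6% in Buffer-only. At 1 ng they overlapped, at 16.7% to 18.8% in RBFOX2 and 16.7%, 12.5% and 16.7% in Buffer-only.

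**Figure D3:**
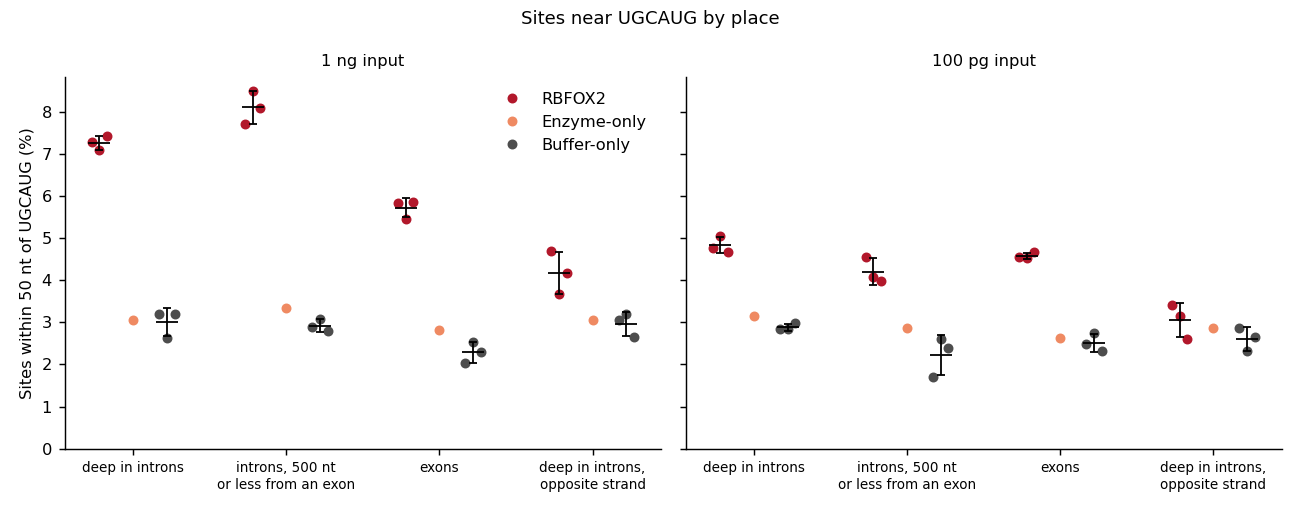
Share of sites within 50 nt of UGCAUG in each library by place (points; black bars, mean and SD of 3 libraries). At 1 ng the RBFOX2 libraries stand above Buffer-only in all 4 places, with the smallest gap for opposite-strand sites.

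The rise near UGCAUG was not limited to deep introns. At 1 ng, 8.10 ± 0.394% of RBFOX2 sites in introns at 500 nt or less from an exon were near the motif, against 2.92 ± 0.150% in Buffer-only. In exons the shares were 5.72 ± 0.225% and 2.29 ± 0.241%. Deep in introns on the opposite strand they were 4.17 ± 0.502% and 2.96 ± 0.287%, and A or U stood before 67.7 ± 0.551% and 58.1 ± 0.419% of those sites. In exons at 100 pg they were 4.58 ± 0.0703% and 2.52 ± 0.217%, beside 4.83 ± 0.198% and 2.89 ± 0.0802% deep in introns and 4.20 ± 0.314% and 2.23 ± 0.472% in introns close to exons (SD, n = 3 throughout). On the opposite strand the groups overlapped at 100 pg, at 3.05 ± 0.407% and 2.60 ± 0.276% (exact permutation p = 0.3). The differences between places were not tested.

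Intron length overlapped between the groups. Each deep intron site was given the length of its intron, so an intron with several sites counted several times. Median length over sites was 17041, 18385 and 17536 nt in the 1 ng RBFOX2 libraries. In Buffer-only it was 17887, 18612 and 17640 nt (exact permutation p = 0.4). Medians at 100 pg were 18595 ± 680 nt and 19518 ± 388 nt (SD, n = 3; exact permutation p = 0.2). The median over all 226224 introns of protein-coding genes, each counted once, was 1486 nt. The rule admits only introns over 1000 nt, of which there were 135139, so part of this contrast is fixed by the rule. The library medians are taken over sites and not over introns, so they are not directly comparable with it. The longest intron with a site had 1240120 nt. First introns held 14.8 ± 0.505% of RBFOX2 sites and 15.1 ± 0.235% of Buffer-only sites at 1 ng. An unbroken run of 10 A within 200 nt downstream followed 9.55 ± 0.122% and 9.06 ± 0.817% of sites (exact permutation p = 0.4), and 3.97% of all C. At 100 pg it followed 7.56 ± 1.01% and 7.36 ± 0.622% (exact permutation p = 0.9).

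**Figure D4:**
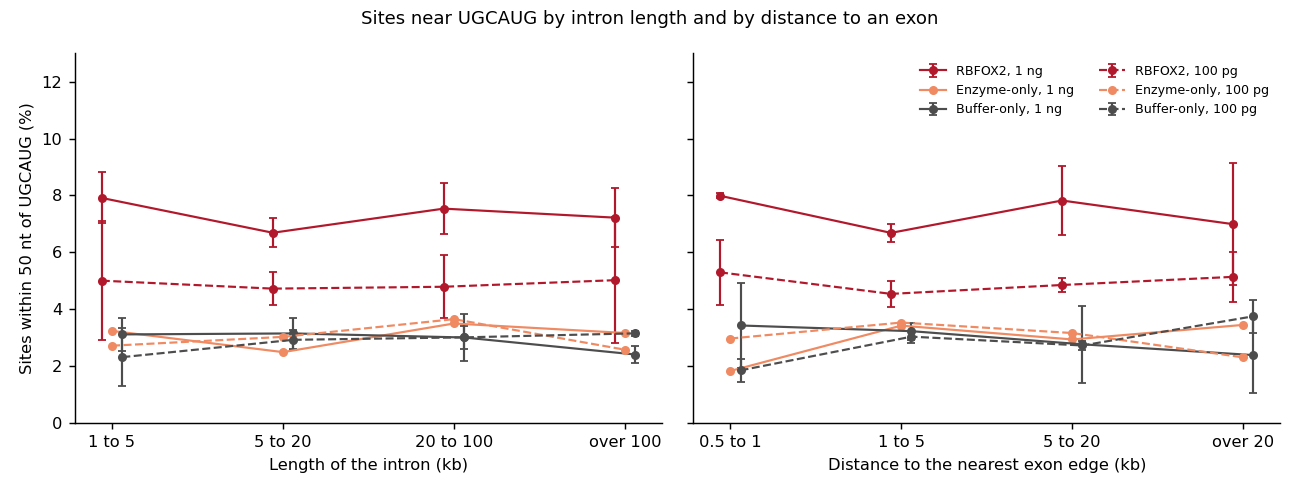
Share of deep intron sites within 50 nt of UGCAUG by the length of the intron and by the distance to the nearest exon edge (points, mean; bars, SD of 3 libraries; Enzyme-only, 1 library without bars). The RBFOX2 means lie above the Buffer-only means in every class at both inputs. At 100 pg the libraries overlap in introns of 1000 to 5000 nt, in introns over 100000 nt (2.86% to 7.29% against 3.09% to 3.24%) and at over 20000 nt from an exon.

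Over the classes of intron length, the mean RBFOX2 share near UGCAUG at 1 ng ran from 6.69% to 7.91%. It was 7.91 ± 0.897% of RBFOX2 sites in introns of 1000 to 5000 nt and 7.22 ± 1.03% in introns over 100000 nt, against 3.11 ± 0.570% and 2.402 ± 0.283% in Buffer-only. By distance, 7.99 ± 0.0937% of RBFOX2 sites at 500 to 1000 nt from an exon were near the motif. At over 20000 nt the share was 6.99 ± 2.15%, with 4.51% in the lowest library and 8.34% in the highest, against 2.38 ± 1.33% in Buffer-only. The farthest sites at 100 pg gave 5.13 ± 0.884% in RBFOX2 and 3.75 ± 0.588% in Buffer-only. By coverage, sites with over 19 and up to 49 reads at 1 ng gave 6.03 ± 0.770% in RBFOX2 and 2.71 ± 0.349% in Buffer-only. Sites with over 49 reads numbered 133 to 171 per RBFOX2 library. Their share was 2.67 ± 1.07% in RBFOX2, 2.82% in Enzyme-only and 1.32 ± 1.41% in Buffer-only, and the groups overlapped.

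Positions called again in another library showed the motif more often than those called once. At 1 ng, 114 positions were called in 2 or 3 RBFOX2 libraries and in no Buffer-only library, and 38 of them were near UGCAUG (33.3%; 25.3 to 42.4). Of the 15353 positions called in 1 RBFOX2 library only, 6.92% were near it (6.53 to 7.34). The reverse set, in 2 or 3 Buffer-only libraries and in no RBFOX2 library, held 31 positions, with 0 near the motif (upper limit of the Wilson interval 11.03%). These intervals count pooled positions as independent, though several can lie beside the same motif copy (the 114 lay in 95 genes). They are therefore too narrow and do not give the spread between libraries. The sets at 100 pg held 32 positions with 9 near the motif and 18 positions with 0. Over both inputs, 145 positions were found in RBFOX2 libraries of each input and in no Buffer-only library, and 38 were near the motif. The corresponding Buffer-only set held 38 positions, with 0 near the motif.

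Taken by motif copy rather than by position, 1163 copies of UGCAUG had a deep intron site of an RBFOX2 library within 50 nt and 409 had one of a Buffer-only library. The counts by copy are not scaled to the number of sites. RBFOX2 libraries held more deep intron sites (4948 to 5531 against 2005 to 2531 at 1 ng), so copies and repeats would be more numerous through site number alone. At 1 ng, 78 copies had sites in 2 RBFOX2 libraries and 10 in all 3, while 762 had sites in 1. For Buffer-only the numbers were 4, 1 and 191. At 100 pg, 17 copies had sites in 2 RBFOX2 libraries and 1 in all 3, compared with 4 and 1 for Buffer-only. In the first MPRIP window printed above, the C at 17163214 was edited in 3 of 9 and 2 of 22 reads at 1 ng and in 3 of 17 at 100 pg, and the C at 17163225 was edited in 6 of 12 reads of replicate 1 at 100 pg. In the second window, the C at 17163445 was edited in 18 of 30 reads in that library and in 3 of 33 reads of the Enzyme-only library at 1 ng. The Enzyme-only library was thus edited beside that copy too.

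A different set of positions recurred in every group. At least 10 of the 14 libraries called 20 deep intron positions, in 15 genes, and 3 positions were called in all 14. These 3 lay in HELLS, which encodes a chromatin remodeler, in LRCH3 and in THSD4. At the HELLS position, 94606073 on chromosome 10, the edit fraction ran from 2.13% to 16% with a median of 8.79%, and at the CCT6B position it ran up to 79.3%. Buffer-only libraries, which received no enzyme, were among those that called them.

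SLIT2, which encodes a secreted ligand of axon guidance receptors, held the most deep intron sites of any gene. At 1 ng its RBFOX2 libraries held 96, 89 and 63 sites, the Enzyme-only library 101, and the Buffer-only libraries 24, 31 and 21. With 100 pg the numbers were 38, 40 and 34, then 38, then 20, 15 and 16. RBFOX2 and Buffer-only did not overlap at either input, as was the case, with RBFOX2 higher, for 50.1% of all rows of genes tested at 1 ng and 31.8% at 100 pg. The Enzyme-only library was above or within the RBFOX2 range. Over the 3 RBFOX2 libraries at 1 ng, 15 of 242 positions in SLIT2 were near UGCAUG.

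MECOM was uneven between replicates. Its RBFOX2 libraries held 17, 21 and 46 sites at 1 ng, so replicate 3 alone held more than the other two together. The Enzyme-only library held 9 and the Buffer-only libraries 4, 4 and 3. Of the 76 positions in RBFOX2 libraries, 16 were near UGCAUG, against 1 in Enzyme-only and 0 in Buffer-only. The 100 pg RBFOX2 libraries held 9, 1 and 7 sites and the Buffer-only libraries 10, 5 and 2, and the groups overlapped.

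**Figure D5:**
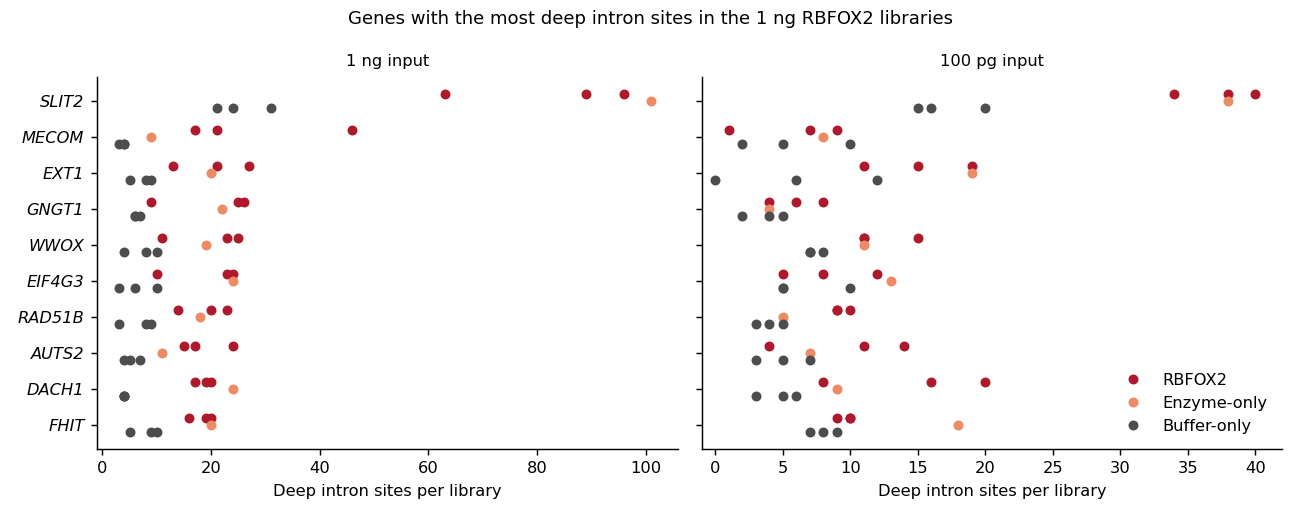
Deep intron sites per library in the 10 genes with the highest mean over the 3 RBFOX2 libraries at 1 ng (points, 1 per library). SLIT2 stands apart at both inputs, with 63 to 96 sites per RBFOX2 library at 1 ng, and MECOM has 1 RBFOX2 library at 46.

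Other genes with many sites held fewer than SLIT2 and MECOM. EXT1, a polymerase of heparan sulfate, held 13, 21 and 27 sites in RBFOX2 at 1 ng and 5, 9 and 8 in Buffer-only. WWOX, an oxidoreductase gene at a fragile site, held 11, 25 and 23 against 4, 10 and 8. DACH1, a transcription cofactor, held 17, 19 and 20 against 4, 4 and 4. FHIT, another fragile site gene, held 16, 19 and 20 against 9, 5 and 10, and RAD51B, a recombination factor, 14, 23 and 20 against 3, 8 and 9. In each of these 5 genes the groups did not overlap at 1 ng, as in 50.1% of all rows tested. In GNGT1 (9, 26 and 25 against 6, 6 and 7), EIF4G3 (24, 23 and 10 against 6, 3 and 10) and AUTS2 (15, 24 and 17 against 4, 5 and 7) the lowest RBFOX2 library lay at or above the highest Buffer-only library. At 100 pg the groups overlapped in EXT1 (15, 19 and 11 against 12, 6 and 0) and AUTS2 (4, 11 and 14 against 7, 3 and 5). They also overlapped in GNGT1 (8, 6 and 4 against 5, 2 and 4) and EIF4G3 (8, 12 and 5 against 10, 5 and 5). In FHIT (10, 10 and 9 against 8, 9 and 7) the groups met at 9. In WWOX, DACH1 and RAD51B they did not overlap. The list at that input also held GPC6 (8, 11 and 16 against 9, 12 and 7) and TTC28 (3, 11 and 12 against 3, 5 and 6), in which they overlapped, and ACBD6 (7, 8 and 10 against 3, 3 and 1), in which they did not. Such a lack of overlap, with RBFOX2 higher, was seen in 31.8% of all rows tested at 100 pg.

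Genes with motif-near positions in RBFOX2 and none in Buffer-only were led by MECOM and MPRIP at 1 ng, with 16 positions each. GPC3, a glypican of the cell surface, MTHFD1L, a mitochondrial folate enzyme, and PIAS1, a SUMO ligase, had 7 each. GPATCH8, the potassium channel gene KCNQ5 and ZNF644 had 6 each, and CARNMT1 and ENSG00000288841 had 5 each. At 100 pg MPRIP had 10, ARID1B, a subunit of the BAF remodeling complex, had 7, and RAD51B had 5. RFC3, TBL1X and TLE4 had 4 each, and ELP2, FOXO3, GRIP1 and JAZF1 had 3 each. In Enzyme-only at 1 ng MPRIP and ARID1B had 3 positions each. Being absent from Buffer-only is part of how these genes were chosen, so these numbers carry no test.

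Gene by gene, no difference passed the test. Site numbers were fitted with edgeR over 1864 rows at 1 ng and 506 at 100 pg, where a gene has 1 row for its deep intron sites and 1 for its other sites. Of 225 deep intron rows at 1 ng, 0 passed an adjusted p of 0.05 and 34 had an unadjusted p under it, 6 of them higher in RBFOX2. The filter scales its minimum to library size, so fewer sites admitted a row in the smaller Buffer-only libraries than in RBFOX2. The direction of these unadjusted rows can therefore follow from the filter. DESeq2 also called 0, with 16 at the unadjusted level. Of 94 rows at 100 pg 0 passed with either tool, with 8 unadjusted in edgeR and 5 in DESeq2. Over all rows, 0% were called higher and 0% lower at 1 ng, and 0.198% higher and 0% lower at 100 pg. This fit scales each library to its own number of sites, so a gene counts as higher only if it rose more than the library as a whole. The median log2 difference was -0.24 over deep intron rows and 0.33 over the other rows at 1 ng, and -0.54 and 0.33 at 100 pg. The sign of the deep intron median depends on the filter: it was 0.64 over 5002 rows without a filter and 0.21 over 12 rows under the default filter at 1 ng, and -0.09 over 5403 rows and 0.55 over 3 rows at 100 pg. MECOM had a log2 difference of 1.55 ± 0.490 (SE; adjusted p = 0.0936, edgeR), APP, the amyloid precursor gene, 2.66 ± 1.04 (adjusted p = 0.162, edgeR), MPRIP 1.88 ± 0.745 (adjusted p = 0.172, edgeR) and SLIT2 0.35 ± 0.254 (adjusted p = 0.498, edgeR). Under a stricter filter on low site numbers MECOM alone passed among deep intron rows, and with no filter MECOM and SLIT2 passed, all higher in RBFOX2. On simulated counts of 1300 rows for 1 ng, the fit recovered 8% of rows changed by 2-fold and 68% of those changed by 4-fold. The changed rows were drawn from all rows with a fixed spread, so these shares do not measure the power for deep intron rows.

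Of all protein-coding genes, 35.1% held 1 or more deep intron sites. All 49 chromatin and transcription genes and all 39 membrane traffic genes of the lists did so, and 0 of 19 marker genes of other cell types. Of the others, 41 of 43 cytoskeleton and division genes, 39 of 40 ubiquitin pathway genes, 42 of 45 kinases and phosphatases, 37 of 51 splicing regulators, 31 of 40 adhesion and guidance genes and 8 of 9 genes named by the study held a site. The lists were written with earlier results of these data known, so the shares describe the lists only. No deep intron row of any list passed the test at either input, and between 0 and 10 members per list were tested. The median log2 difference at 1 ng ran from -0.79 over 2 cytoskeleton rows to 1.09 over 3 membrane traffic rows, apart from APP as the only row of the study genes, beside -0.24 over the 225 deep intron rows that passed the filter, a value that turned to 0.64 without it.

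Within the lists, APP held 9, 5 and 5 sites in the 1 ng RBFOX2 libraries against 0, 0 and 1 in Buffer-only. PTBP2, a splicing repressor, held 14, 9 and 12 against 0, 3 and 3. ROBO1, a receptor for SLIT ligands, held 11, 11 and 21 against 3, 5 and 1. UBE2E2, a ubiquitin-conjugating enzyme, held 15, 9 and 11 against 3, 4 and 6. In these 4 genes the groups did not overlap, which held for 50.1% of all rows tested. RALY, an RNA-binding protein, held 6, 7 and 5 against 4, 6 and 6, and BRAF, a kinase of the MAPK pathway, 3, 9 and 5 against 2, 3 and 2. The RALY counts include positions 34103513, 34103516 and 34103522 on chromosome 20. Each of these was called in 13 of the 14 libraries, Buffer-only among them.

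FLARE clusters, which group neighbouring edit sites, gave a like picture. At 1 ng 4497 ± 274 clusters per RBFOX2 library had their centre deep in an intron, against 2003 ± 250 in Buffer-only and 4890 in Enzyme-only. Of these, 6.64 ± 0.0871% were near UGCAUG in RBFOX2, 3.04 ± 0.296% in Buffer-only and 3.01% in Enzyme-only (exact permutation p = 0.1 for RBFOX2 against Buffer-only, n = 3). Shares at 100 pg were 4.40 ± 0.174%, 2.76 ± 0.211% and 3.34%. The share of clusters that lay deep in introns overlapped between the groups at 1 ng (18.5 ± 0.635% and 18.7 ± 1.36%).

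Few deep clusters reached the authors' confident lists, which keep clusters found over the replicates. Of 907 confident RBFOX2 clusters at 1 ng, 42 (4.63%) were deep in an intron, and after the authors removed Buffer-only clusters 28 of 776 were. In this cleaned list 7 had their centre near UGCAUG, in RAVER2, DOCK1, MPRIP, ANKRD17, BAG2, VPS13B and RBFOX2 itself. Of 267 at 100 pg, 8 were deep, and 4 of 214 after cleaning, in PSMA8, C2orf88, SLBP and MLIP, with 0 near the motif. The MLIP cluster spans position 54210625 on chromosome 6, which was called in 13 of the 14 libraries, Buffer-only among them. A MLIP cluster with the same start was also in the Buffer-only list at 1 ng. The Buffer-only lists held 24 of 250 at 1 ng and 9 of 102 at 100 pg.

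The gene RBFOX2 encodes the targeted protein. Its intron 5 held a run of deep intron sites between 35838485 and 35838552 on chromosome 22, close to a UGCAUG. The C at 35838495 was edited in 6 of 14 reads of RBFOX2 replicate 1 at 1 ng and in 4 of 9 at 100 pg, and also in 1 of 8 and 2 of 5 reads of Buffer-only libraries at 100 pg. The C at 35838524 was called in RBFOX2, Enzyme-only and Buffer-only libraries at 1 ng. Sites in this run therefore did not separate the groups.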

How the data were processed

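C-to-U edits were measured by RNA sequencing in 14 libraries of methanol-fixed HEK293T cells, grouped and numbered by their labels. Reads were trimmed (the labels name cutadapt), cleared of repeat elements and aligned to hg38 with STAR (version 2.4.0 per the labels), and SAILOR gave site calls without known variants. In the deposited site files, which give each site a score and a pair of read counts (edited, then total), 0 sites broke the score limit of 0.5 or the edit fraction limit of 0.8 that the authors set. The deposited FLARE files give clusters with counts, a fraction edited, a score and a depth signal. The confident lists of the authors hold replicate 1 clusters that overlap those of the other replicates, and the deposited signal in them was not used.

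Sites were placed with Gencode 44, a later release than the one the study names, and all C of hg38 deep in introns of the same genes served as the background. Values were compared with exact permutation tests over libraries (scipy 1.17.1). Site numbers per gene, which are counts of sites and not of reads, were fitted with the quasi-likelihood test of edgeR 4.0.16 (TMM, Benjamini-Hochberg), tested on simulated data. The filter asked for at least 3 sites, scaled to library size, and 5 in all. DESeq2 1.42.0 was an alternative. Other tools were Python 3.11.15, numpy 2.4.6, pandas 2.3.3, matplotlib 3.10.9 and R 4.3.3. Depth limits the result: the lowest coverage of a listed site was 5 reads, and total reads per library were not used here.

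Named genes were the 10 with the most deep intron sites, the 10 with the most motif-near positions absent from Buffer-only, those of the confident lists, up to 4 per gene list and those passing the test. The sets of deep intron sites and the gene lists were chosen with earlier results of these data known. The correlation of gene-wise deviations between same-numbered RBFOX2 and Buffer-only libraries is given with the alternatives. Some motif copies that met the same rule as the printed windows are not reported here.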

Additional observations from a re-analysis of the deposited data

Results flagged for a closer look

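The gain in deep intron sites differed between the inputs before adjustment. RBFOX2 libraries held 2965 more sites than Buffer-only libraries on average at 1 ng and 700.3 more at 100 pg, a difference of 2264 sites (exact permutation of the input labels within RBFOX2 and within Buffer-only, two-sided, 400 assignments, p = 0.015; adjusted p = 0.105 over 7 values). Every RBFOX2 library was above every Buffer-only library at both inputs.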

How the results depend on the processing

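For the number of deep intron sites, their share, the strand ratio, the base before the edited C and the share near UGCAUG, the difference between RBFOX2 and Buffer-only kept its direction at both inputs under 137 of 138 alternatives. The exception was the share at 1 ng, which turned from -2.67 to 2.02 percentage points with all sites of a library as denominator, an alternative chosen after seeing the data (-0.742 in place of -5.60 at 100 pg). The share difference also moved to -1.11 points at 1 ng with islands, and to -4.41 at 1 ng and -10.2 at 100 pg at a score of at least 0.9. Leaving out 1 library gave 4.06 to 4.35 points for the share near UGCAUG at 1 ng and 1.83 to 2.02 at 100 pg, and other windows and filters 2.71 to 8.07 and 1.23 to 4.004. A coverage of at least 10 reads moved the difference in site number at 1 ng from 2965 to 1225 and that of the strand ratio from 0.759 to 0.423, and a score of at least 0.9 moved the 100 pg differences in strand ratio from 0.142 to 0.216 and in A or U from 8.53 to 12.9 points. Median intron length at 1 ng, with an RBFOX2 minus Buffer-only difference of -392.7 nt, turned to 620 nt higher at over 1000 nt from an exon and 416 nt higher at a coverage of at least 10 reads. The A-run difference at 100 pg (0.194 points) turned to -0.501 at a score of at least 0.9 and ran from -0.349 to 0.647 when 1 library was left out, below 0 without RBFOX2 replicate 2 (-0.349) or Buffer-only replicate 1 (-0.163). The causes were not tested.

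The edgeR count of deep intron rows at 1 ng rose from 0 to 3 without TMM (BACH1, C1orf112 and PTGFR, lower), to 1 under the default filter (MECOM, higher), to 2 without a filter (MECOM and SLIT2, higher), to 2 at over 1000 nt (BACH1 and PTGFR, lower) and to 3 at a coverage of at least 10 (C1orf112, FADS2 and PARG, lower). Leaving out 1 library gave 0 to 1, with PARG called lower without RBFOX2 replicate 2. The median of all rows moved from 0.27 with TMM to 0.00363 without it on the log2 scale. At 100 pg the count was 0 under every alternative run.

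The replicate block paired libraries by number. It left all directions in place, gave exact p-values of 0.25 or more, the smallest that 3 pairs allow, and called 0 deep intron rows at either input. Deviations of same-numbered libraries correlated at 0.00346 to 0.0554 at 1 ng and 0.0356 to 0.0626 at 100 pg over genes. Libraries with different numbers gave -0.0816 to 0.0353 and -0.0828 to 0.0343. With so few sites per gene, these values cannot tell whether same-numbered libraries were handled together.

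Site numbers per gene are small, which limits the gene tests. On simulated counts edgeR recovered 8% of rows changed by 2-fold at 1 ng and 0% at 100 pg, and 68% and 32% of those changed by 4-fold. The changed rows were drawn from all rows, with a fixed spread, and rows lost to the filter counted as missed. These shares therefore do not measure the power for deep intron rows.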
